A study of Mus musculus with 30 samples.

Results

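Promoter-upstream transcripts (PROMPTs) of genes known mainly by a systematic name were followed in mouse E14 embryonic stem cells. The members were the rows of the authors' 12 h PROMPT table whose mean normalised count over libraries was at least 3. Their host gene, the gene whose start they lie upstream of, had a name of 1 of 5 kinds: a predicted gene (Gm), a RIKEN clone (Rik), a microRNA (Mir), a small nucleolar RNA (Snor) or a clone accession. There were 568 such PROMPTs among 32253 rows, of which 14583 had a matching name and 2510 reached the count minimum under any name. By name, 380 hosts were Gm, 110 Rik, 52 Mir, 11 Snor and 15 clone accessions. The members were selected on the 12 h mean count, a readout of that table, so all 12 h values are given as a description.

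RNA was measured by TT-seq, which sequences RNA labelled during a pulse of 4-thiouridine, here 5 min, so that reads weight newly made transcripts. The series holds 30 libraries of E14 cells grown without feeders in LIF with GSK and MEK inhibitors. The labels describe the osTIR1 receptor as integrated into the genome, and the cells either carry an auxin-inducible degron on SPT16 (SPT16-AID) or are untagged. SPT16 is a subunit of the histone chaperone FACT, and 3-indole-acetic acid (IAA, 500 nM) triggers loss of the tagged protein. The vehicle was ethanol (EtOH). In the time course 22 libraries form 11 groups of 2. Untagged cells were taken at 0 h and at 3, 6 and 12 h of IAA. The tagged cells were taken at 0 h and at each later time of either IAA or EtOH. In the washout 8 libraries of SPT16-AID cells were treated for 12 h, 4 with IAA and 4 with EtOH, and then kept in fresh medium for 24 h. The count table names the lines 10E and 11D, with 2 libraries a line and treatment, and the labels name 2 clones without saying which line each is. Every SPT16-AID group carries the degron, the EtOH groups included. Groups rest on the sample titles, since other label fields contradict them for many time-course libraries.

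A PROMPT is a short, unstable RNA made upstream of an active promoter, usually in the direction away from the gene. Such RNAs are known to be terminated early and degraded by the nuclear RNA exosome, so they are scarce in total RNA and easier to see in newly made RNA. FACT takes apart and restores nucleosomes in the path of RNA polymerase II, and its loss is known to expose start sites that nucleosomes normally cover. Predicted and noncoding hosts are a mixed class: long noncoding RNAs, hosts of microRNAs and small nucleolar RNAs, and genes annotated from sequence alone.

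The GENCODE M21 annotation gave a type to 540 of the 568 hosts. The most frequent were long intergenic noncoding RNA (143), genes that await experimental test (TEC, 82), microRNA (80), protein-coding (58) and antisense RNA (56). A further 32 were small nuclear RNAs, 30 small nucleolar RNAs and 5 ribosomal RNAs. The annotated type and the name therefore differ: 80 hosts are typed microRNA, while 52 carry a Mir name.

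The mature sequences show which microRNAs stand behind the Mir members, and are given for the 4 Mir hosts whose PROMPT had an adjusted p under 0.05 at 12 h and for 2 of the 3 with the highest mean counts. RefSeq (GRCm38.p6) held an entry for 46 of the 52 Mir hosts. Capitals mark the seed, bases 2 to 8 from the 5′ end, through which a microRNA pairs with its targets.
mmu-miR-290a-3p: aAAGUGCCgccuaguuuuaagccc
mmu-miR-290a-5p: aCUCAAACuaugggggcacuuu
mmu-miR-26b-5p: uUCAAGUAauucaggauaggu
mmu-miR-26b-3p: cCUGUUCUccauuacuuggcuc
mmu-miR-7031-5p: cCUGAGAGgccugaaggguggga
mmu-miR-7031-3p: aACCCUCUugcccucuccuag
mmu-miR-7657-5p: aAUAGUUGgauaguuagguaa
mmu-miR-7657-3p: uUCCUUGCuauucccaacuuggu
mmu-miR-6338: cUGGUUUCucucauuugugcu
mmu-miR-6236: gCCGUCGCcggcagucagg
The 73 mature sequences compared had 73 different seeds, so no seed was shared among them. Not every Mir host was compared, those without an entry among the ones left out, so a shared seed among all 52 is not excluded. Mir290a belongs to the cluster that supplies the most abundant microRNAs of mouse embryonic stem cells.

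The stretch just upstream of a host start is where its PROMPT would be made. It is shown for 5 of the called hosts that have an entry there, 3 on the negative and 2 on the positive side. Gm5922, on the negative side (−1.32), also has an entry there and is not shown. Of the 568 hosts, 131 had a promoter in the RefSeq table (GRCm38.p6), and in 76 the RefSeq start lay within 50 bases of the start in the count table. Each line gives the 250 bases before the start in the direction of the host, with CG dinucleotides in capitals. Gm16537 (chr15:99724475-99724724, minus strand), 4933438K21Rik (chr4:147068437-147068686, minus strand) and Gm867 (chr10:75940673-75940922, minus strand) head PROMPTs of negative sign at 12 h. Gm5493 (chr17:22739690-22739939, plus strand) and 4921517D22Rik (chr13:59694102-59694351, minus strand) head PROMPTs of positive sign.
Gm16537: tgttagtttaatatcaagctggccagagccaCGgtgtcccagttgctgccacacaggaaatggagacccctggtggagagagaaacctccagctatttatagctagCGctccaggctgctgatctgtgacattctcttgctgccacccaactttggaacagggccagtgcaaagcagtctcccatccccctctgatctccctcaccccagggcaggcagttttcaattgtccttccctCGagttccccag
4933438K21Rik: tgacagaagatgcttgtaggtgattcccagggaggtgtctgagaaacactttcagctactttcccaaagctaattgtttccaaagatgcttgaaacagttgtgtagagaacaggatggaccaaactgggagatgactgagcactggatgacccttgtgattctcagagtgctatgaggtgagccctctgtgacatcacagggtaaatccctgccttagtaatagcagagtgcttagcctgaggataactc
Gm867: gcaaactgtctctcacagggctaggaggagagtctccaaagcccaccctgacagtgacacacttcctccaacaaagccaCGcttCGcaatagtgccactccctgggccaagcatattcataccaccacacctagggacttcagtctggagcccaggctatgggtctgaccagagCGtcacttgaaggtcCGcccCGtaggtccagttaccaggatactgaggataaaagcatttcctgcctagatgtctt
Gm5493: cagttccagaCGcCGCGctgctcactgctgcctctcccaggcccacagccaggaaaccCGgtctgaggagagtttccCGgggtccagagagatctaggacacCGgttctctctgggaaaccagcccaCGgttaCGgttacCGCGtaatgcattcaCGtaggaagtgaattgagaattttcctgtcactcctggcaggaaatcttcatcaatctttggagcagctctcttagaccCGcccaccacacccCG
4921517D22Rik: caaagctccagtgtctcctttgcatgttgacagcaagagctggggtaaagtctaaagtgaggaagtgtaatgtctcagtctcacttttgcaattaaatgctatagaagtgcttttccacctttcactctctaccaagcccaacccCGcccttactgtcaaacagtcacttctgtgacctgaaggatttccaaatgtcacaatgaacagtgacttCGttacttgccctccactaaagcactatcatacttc
The number of CG dinucleotides was 3 for Gm16537, 0 for 4933438K21Rik, 5 for Gm867, 13 for Gm5493 and 2 for 4921517D22Rik. Over the 76 member windows the median was 6 CG dinucleotides and 54.6% G or C, beside 6 and 52.4% over all 32851 windows of the table. The poly(A) signal AATAAA, read on the strand opposite to the host, was present in 2 of 76 member windows (2.63%) and in 9.49% of all windows. Read on the host's strand, it was in 10 (13.2%) and in 10.4%. The splice-donor letters GGTAAG on the opposite strand were in 1 of 76 (1.32%) and 3.72%, and on the host's strand in 3 (3.95%) and 4.26%. The TATA letters TATAAA, on either strand, were in 9 of 76 (11.8%) and in 12.4% of all windows, and among the 5 windows shown only that of Gm16537 holds one. These are matches of letters in a window. AATAAA and TATAAA share letters, so matches of the 2 can overlap.

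The authors' tables do not state which groups they compare or in which direction, so changes are called positive or negative as signed there. The lowest mean counts of each PROMPT table fall on steps worth 1 read in 1 library, which gives 4 libraries at 0 h (2 on each side) and 6 at 3, 6 and 12 h (2 on the positive and 4 on the negative side). These sum to 22, the number of time-course libraries in the labels, but which libraries stand in which table was not tested. In the 12 h table a mean count of 3 is worth 19.7 reads over the 6 libraries if they are spread evenly. The tables hold no value per library, so no SD or n can be given for a PROMPT. The mean counts of the members ran from 3.00 to 959, with a median of 6.86, by the authors' deposited table. Just inside the minimum lay Gm16343 (3.00), Gm27649 (3.01) and 5330411J11Rik (3.01), and just outside it Gm20460 (2.97), Gm11632 (2.97) and Gm44765 (2.96), by the authors' deposited table.

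At 12 h the PROMPTs of 15 hosts were positive and those of 23 hosts negative at the authors' adjusted p under 0.05, of 568 with an adjusted p by the authors' deposited table. That is 2.64% and 4.05% of the members, beside 3.11% positive and 1.93% negative of the 3052 rows of any name with an adjusted p. The 1942 rows with other host names and the same count minimum had 69 positive (3.55%) and 36 negative (1.85%). The median shrunken log2 fold change was −0.09 over the members and −0.01 over those other rows by the authors' deposited table. The quartiles over all members were −0.47 and 0.26. Since the rule used this table, nothing is read from these counts.

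**Figure D1:**
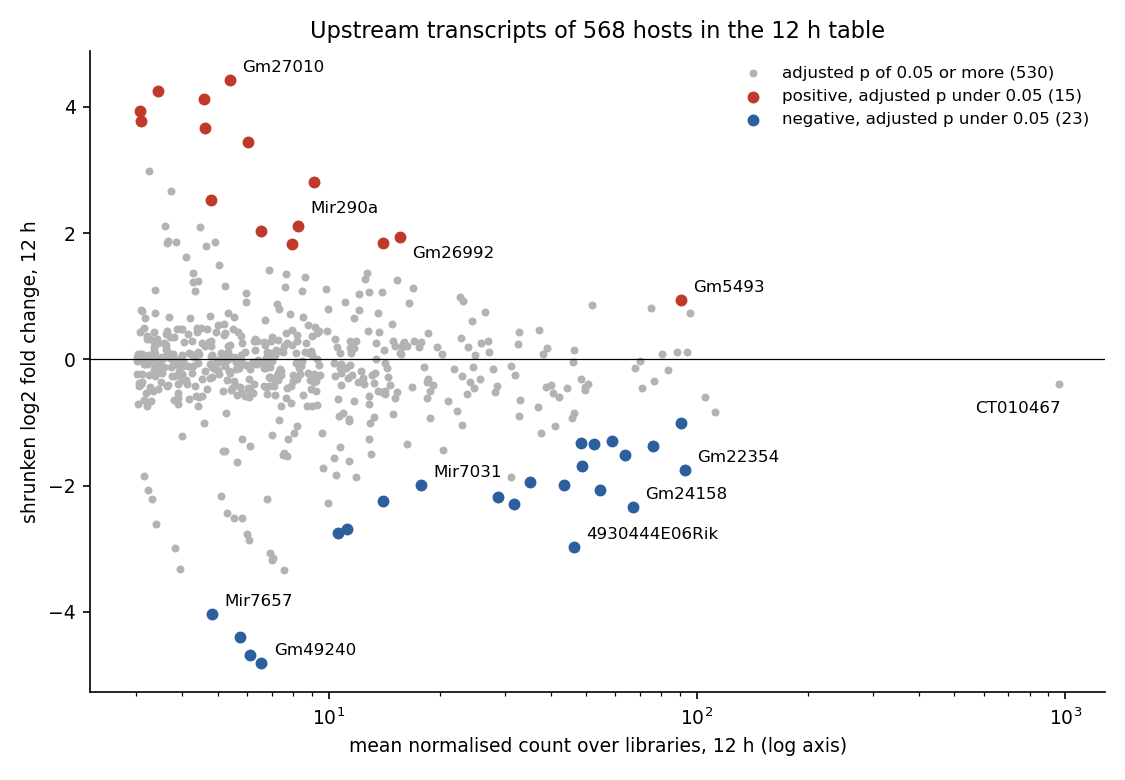
Shrunken log2 fold change of each of the 568 member PROMPTs at 12 h (vertical axis) against its mean normalised count over libraries (horizontal, log axis), from the authors' deposited table. Red and blue points are the 15 positive and 23 negative PROMPTs with an adjusted p under 0.05, and the blue ones lie further to the right, at a median mean count of 43.6 beside 6.03.

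The rule used the mean count, and a scarce member can pass its minimum through the side where it is high, so the abundance of the calls is given without a reading. The 15 positive PROMPTs had a median mean count of 6.03 (3.06 to 90.4), and the 23 negative ones 43.6 (4.81 to 92.6), by the authors' deposited table. Gm5493, a long intergenic noncoding RNA, was the only positive call with a mean count above 20, at 90.4. The numbers also depend on the count minimum, as given under the processing.

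The largest negative values belonged to 4 scarce PROMPTs with wide errors. In the authors' deposited 12 h table Gm49240, a long intergenic noncoding RNA on chromosome 15, stood at −4.82 ± 2.46 (shrunken log2 fold change ± SE, mean count 6.55, adjusted p = 0.0183). The PROMPT of Gm16537, an antisense RNA whose upstream stretch overlaps Gpd1, stood there at −4.69 ± 2.45 (mean count 6.09). Gm33378 was at −4.40 ± 2.51 (5.75) and Mir7657, which lies inside Fnbp1l, at −4.04 ± 2.46 (4.81) by the authors' deposited table. All 4 had SEs far above those of the abundant members that follow.

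Among abundant PROMPTs the most negative was that of 4930444E06Rik, an antisense RNA on chromosome 2 (144243241 to 144244849), at −2.97 ± 0.62 (mean count 46.3, adjusted p = 6.8e-05) by the authors' deposited table. Gm24158, a host of 71 bases typed microRNA that lies inside Gm11613, had the smallest adjusted p of all members, 3.43e-05, at −2.35 ± 0.47 (mean count 66.8) by the authors' deposited table. The PROMPTs of 4930548H24Rik (−2.30 ± 0.56), Gm26813 (−2.19 ± 0.59) and 4933438K21Rik (−2.07 ± 0.53) followed, with mean counts of 31.7, 28.7 and 54.5 by the authors' deposited table. Gm47438 (−2.75 ± 1.02), Gm44053 (−2.69 ± 1.05) and Gm19656 (−2.25 ± 0.86) were less abundant, at mean counts of 10.6, 11.2 and 14 there. The 2 most abundant negative calls were Gm22354, typed small nucleolar RNA (−1.75 ± 0.51, mean count 92.6), and Gm20703, a long intergenic noncoding RNA (−1.01 ± 0.39, mean count 90.3), by the authors' deposited table. By type, 8 of the 23 negative hosts were long intergenic noncoding RNAs and 5 antisense RNAs, with 3 each of TEC and microRNA and 2 each of small nucleolar RNA and protein-coding.

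The positive side was led by scarce PROMPTs. Gm27010, a long intergenic noncoding RNA inside Dleu2, the host transcript of miR-15a and miR-16-1, stood at 4.43 ± 1.27 (mean count 5.39, adjusted p = 0.00387) by the authors' deposited table. Gm24270, inside the pseudokinase gene Peak1, was at 4.26 ± 1.68 (3.44), Gm43091, upstream of which Por lies on the opposite strand, at 4.13 ± 1.35 (4.58), and 5430431A17Rik at 3.93 ± 1.77 (3.06) by the authors' deposited table. Next in it came 4921517D22Rik (3.78 ± 1.90), Gm15751 (3.66 ± 1.22), 1700022I11Rik (3.44 ± 1.14), Gm42498 (2.81 ± 0.74) and Gm27168 (2.53 ± 1.11). At lower values stood D630011A20Rik (2.04 ± 0.93) and Gm26992 (1.93 ± 0.62) by the authors' deposited table. Gm5493 was at 0.94 ± 0.34 (adjusted p = 0.0375) there, the smallest positive call and the most abundant.

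Of the 52 Mir members 2 were positive and 2 negative at 12 h, and 48 had no call. The PROMPT of Mir290a, whose mature sequences are given above, stood at 2.12 ± 0.85 (mean count 8.24, adjusted p = 0.0301) by the authors' deposited table. Mir26b, which lies inside the phosphatase gene Ctdsp1, was at 1.85 ± 0.64 (mean count 14, adjusted p = 0.0158) there. Mir7031, inside the signalling adaptor gene Sh2b3, was at −1.99 ± 0.83 (17.8, adjusted p = 0.0334) by the authors' deposited table. Over all 52 the values ran from −4.04 to 2.12 with a median of −0.08. The 3 most abundant Mir members had no call by the authors' deposited table: Mir6972 at 0.85 ± 0.40 (mean count 51.8, adjusted p = 0.0969), Mir6338 at −0.94 ± 0.50 (45.8, adjusted p = 0.108) and Mir6236 at 0.18 ± 0.54 (39.1, adjusted p = 0.732).

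None of the 11 Snor members had a call at 12 h, and at an unadjusted p under 0.05 there were 0 positive and 2 negative, Snora24 and Snord104. At that threshold 10.6% of all members were positive and 16.4% negative, beside 3.25% and 2.84% of the 11683 rows with a p-value, so nothing is read from the Snor count. The values ran from −1.39 (Snora24) to 0.72 (Snora3), with a median of 0.10, by the authors' deposited table. Snord82, inside the nucleolin gene Ncl, was the most abundant of them (24.9) at 0.07 ± 0.50, followed by Snord65 (14.9) at 0.56 ± 0.52 and Snord68 (11.7) at 0.17 ± 0.47 by the authors' deposited table.

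The member with the largest mean count, CT010467 (959), stood at −0.39 ± 0.37 (adjusted p = 0.467) by the authors' deposited table. Its name matched 2 versions in the count table, so it was given no position. The next, Gm33994 (112) and Gm44390 (105, which starts 404 bases from the histone gene H2ac12 on the opposite strand), were at −0.84 ± 0.43 and −0.60 ± 0.43, and neither passed, by the authors' deposited table. The PROMPTs of 4930516B21Rik (95.6), Gm16618 (93.7), 1700096K18Rik (88.2) and Gm43804 (83.2) were at 0.73, 0.12, 0.11 and −0.17 in it, also without a call. Of the 10 most abundant members 3 were called: Gm22354, Gm5493 and Gm20703.

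At 6 h no member was called in either direction, of 525 with an adjusted p, where 0.122% of 3292 rows were positive and 0 negative (0%) over the whole authors' deposited table. At an unadjusted p under 0.05 there were 28 positive and 35 negative of 568, or 63 (11.1%), beside 2.13% of the 11897 rows with a p-value. Most of those rows are far scarcer than the members, whose minimum count was set at 12 h. The smallest adjusted p was that of Gm25397, typed microRNA and inside Arid2, at 0.0964, with −2.52 ± 0.86 in the authors' deposited 6 h table. It was followed by 9530068E07Rik (2.15 ± 0.81, adjusted p = 0.151) and 4930444E06Rik (−1.01 ± 0.55, adjusted p = 0.273), by the authors' deposited table. Values at 6 h are shrunken more strongly than at 12 h, so their sizes cannot be set beside each other.

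At 3 h and at 0 h no member was called either, of 567 with an adjusted p at each time. By the authors' deposited tables, a share of 0% of 13088 rows were called at 3 h and 0.00821% of 12182 at 0 h. With an unadjusted p under 0.05, 4 members were positive and 14 negative at 3 h, in all 3.17%, where the share of all rows was 1.15%. At 0 h 2 were positive and 3 negative, 0.882% of the members, where 0.287% of all rows passed. Nearly all shrunken fold changes in these 2 tables are at 0 to within their printed size, so only signs and p-values can be read there. The exception among the members at 3 h was Mir6236, at 1.17 (p = 0.00113, adjusted p = 0.983) by the authors' deposited table.

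Followed back in time, the 38 PROMPTs called at 12 h had the same sign at 6 h in most cases. Of the 15 positive ones 13 were positive at 6 h, 11 at 3 h and 6 of 14 with a value at 0 h, by the authors' deposited tables. Of the 23 negative ones 21 were negative at 6 h, 17 at 3 h and 13 at 0 h by the authors' deposited tables. Over all members 46.5% of signs were positive at 6 h, 43.9% at 3 h and 46.2% at 0 h. At 6 h 3 of the 15 and 6 of the 23 had an unadjusted p under 0.05 by the authors' deposited table. The smallest of these p-values belonged to 4930444E06Rik, Gm27010 (1.53 ± 1.38) and Gm5922 (−0.57 ± 0.65), by the authors' deposited table.

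**Figure D2:**
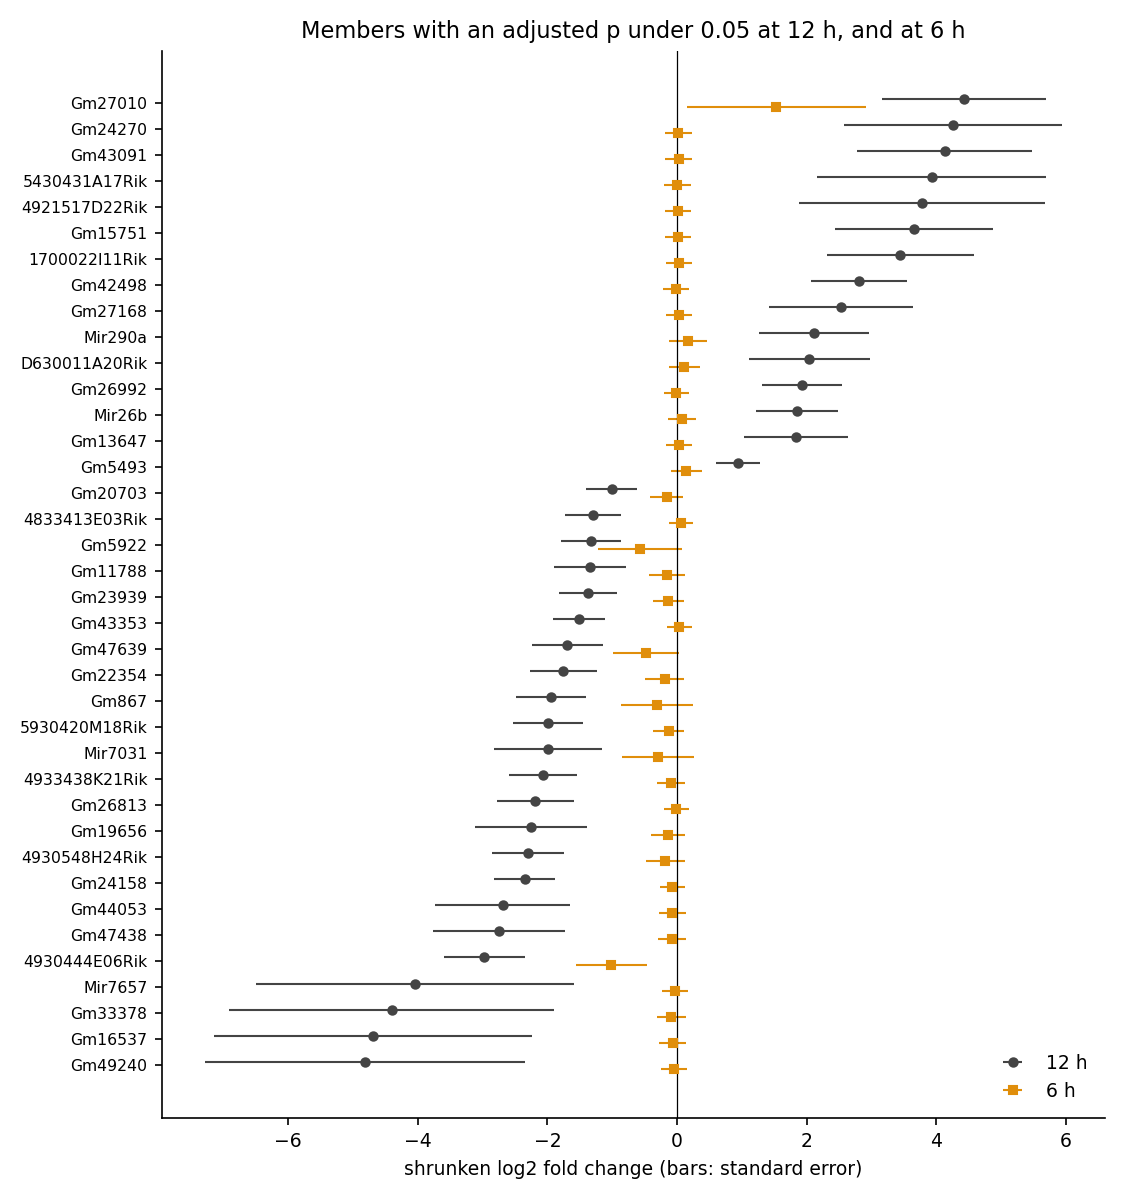
Shrunken log2 fold change (horizontal axis) with its SE (bars) of the 38 member PROMPTs called at 12 h, at 12 h (circles) and 6 h (squares), from the authors' deposited tables. The 12 h values run from −4.82 to 4.43, while the 6 h values lie near 0, with Gm27010 at 1.53 and 4930444E06Rik at −1.01 furthest out. Values at 6 h are shrunken more strongly, so only their signs can be set beside those at 12 h.

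The surroundings of the hosts were taken from the count table, which gives mm10 positions for 565 members with 1 locus. Another gene overlapped the 1000 bases upstream of the start on the same strand in 158 hosts (28%), on the opposite strand in 72 (12.7%) and on either in 222 (39.3%). Reads in an upstream window of such hosts can belong to the other gene, and the sources used here do not state the window or strand that the authors counted. The overlap was common among small RNA hosts, with 35 of 52 Mir and 10 of 11 Snor hosts on the same strand, and less so in 96 of 379 Gm and 16 of 110 Rik hosts. Of the called members 6 of 15 positive and 4 of 23 negative ones had another gene upstream on the same strand. The 343 members with no other gene in the window held 7 positive and 16 negative calls.

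Neighbouring genes in the authors' gene table had the sign of the PROMPT in some cases and not in others. A gene on the opposite strand started within 1000 bases of the host start in 66 members (11.7%), and 25 of 48 with values had the same sign as the PROMPT at 12 h. Same-strand upstream genes had the same sign in 70 of 121 and opposite-strand ones in 29 of 57. D630011A20Rik starts 291 bases from Spaca7, a gene of the sperm acrosome, which was itself positive at 1.18 ± 0.73 (adjusted p = 0.049) in the authors' deposited gene table. For Gm47438 and Gm11788, both negative PROMPTs, the opposite genes Atp5b and Slc25a10 stood at 0.22 ± 0.41 (adjusted p = 0.558) and 0.54 ± 0.29 (adjusted p = 0.106) in the authors' deposited gene table. The genes that hold the microRNA hosts did not pass in it: Ctdsp1 was at 0.19 ± 0.38, Sh2b3 at −0.08 ± 0.25, Fnbp1l at −0.29 ± 0.21 and Peak1 at −0.30 ± 0.22. Agbl5, a tubulin deglutamylase gene that holds the negative host 5930420M18Rik (−1.99 ± 0.53), was positive at 0.81 ± 0.33 (adjusted p = 0.0237) in the authors' deposited gene table.

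Only 55 of the 568 hosts are themselves listed in the authors' gene tables. At 12 h 3 of 43 with an adjusted p were positive (6.98%) and 7 negative (16.3%), beside 8.58% and 12.1% of 15917 genes by the authors' deposited table. At 6 h 0 of 31 hosts were positive and 2 negative, beside 1.71% and 1.39% of 12534 genes, with 1 positive and 5 negative of 50 at an unadjusted p under 0.05, where 7.37% and 6.22% of all genes passed. No host passed at 3 h (of 28) or 0 h (of 40) in either direction, where 0.531% of genes were positive and 0.0458% negative at 3 h and 0.0201% and 0.355% at 0 h, by the authors' deposited tables. At an unadjusted p under 0.05, 1 of 53 hosts was positive and 2 negative at 3 h, beside 5.66% and 2.89% of all genes. At 0 h 1 of 51 was positive and 0 negative, beside 1.04% and 2.24%.

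Of the 10 called hosts 1, Gm26992, had a called PROMPT (10%), a share near the 6.69% of all members (38 of 568). A PROMPT of the same sign was found for 7 of the 10. Gm26992, annotated as protein-coding on chromosome X next to Tsx, stood at −1.41 ± 0.41 (adjusted p = 0.000686) as a gene and at 1.93 as a PROMPT by the authors' deposited tables. The gene 1700016D06Rik was at 2.07 ± 0.31 (adjusted p = 7.53e-10) with its PROMPT at −0.70 (adjusted p = 0.214), and 1700109H08Rik at −1.40 ± 0.46 with its PROMPT at 1.35 (adjusted p = 0.114), by the authors' deposited tables. Other called hosts and their PROMPTs lay on the same side, such as 6430550D23Rik (1.62 and 1.08), 2410137M14Rik (−1.30 and −0.69) and Gm14401 (−1.06 and −0.39) by the authors' deposited tables. Over all 52 hosts with both values the signs were equal in 34 (65.4%) at 12 h and in 27 (51.9%) at 6 h. Among the 17 with a PROMPT mean count of at least 10 they were equal in 9 (52.9%) and 10 (58.8%). These 17 are too few to tell whether either share differs from that over all 52. The values of a PROMPT and its host come from the same time course, so these are not independent. By the steps of 1 read, the 6 h PROMPT values rest on 6 libraries and the 6 h gene values on 5. Which library is missing from the latter was not tested.

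**Figure D3:**
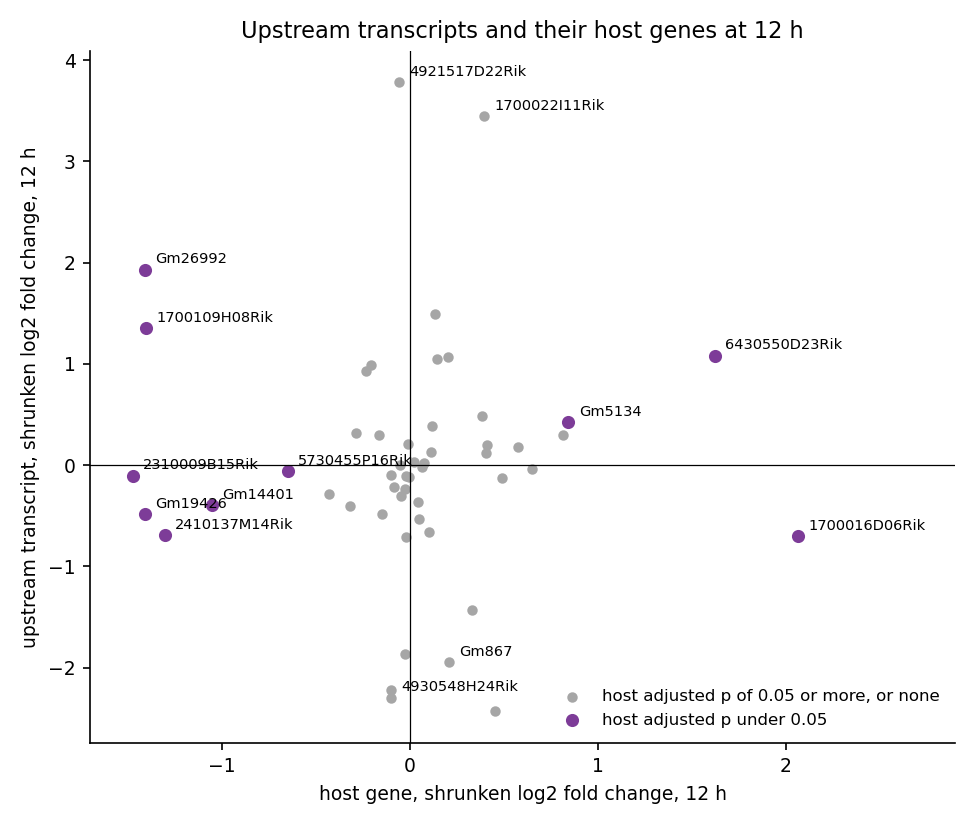
Shrunken log2 fold change at 12 h of the upstream transcript (vertical axis) against that of its host gene (horizontal axis) for the 52 members with both values by the authors' deposited tables. Purple points are the 10 hosts with an adjusted p under 0.05, and Gm26992, 1700109H08Rik and 1700016D06Rik are those whose 2 values have opposite signs.

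The washout gives raw counts per library for the hosts themselves, from libraries that the rule did not use, though none for the PROMPTs. Library totals ran from 6547992 to 16554314 counts. Embryonic stem cell markers summed to 1990 to 3480 CPM, counts scaled to a common library size, in EtOH and 2260 to 2520 CPM in IAA libraries. The lists for 5 other cell types stayed at or under 29.2 CPM. Of these, primitive endoderm markers summed to 8.9 to 12.1 CPM in EtOH and 15.1 to 16.5 CPM in IAA libraries, without overlap. The ranges of the remaining lists overlapped between treatments. Among the stem cell markers Sox2 alone was under 1 CPM. Read pairs overlapping more than 1 gene were not counted, so a value this low need not mean that Sox2 was silent. Whether such overlap lowered Sox2 was not tested. In such bulk samples fewer cells of a type and less RNA per cell cannot be told apart. A set of 6 loci with over 1% of the counts in any library (Cdk8, Lars2, Gphn, Gm23935, Cmss1 and CT010467.1) took 7.12 to 11.4% of counts in EtOH libraries and 29.9 to 40.7% in IAA libraries. The part of these loci in the results was not tested. A fit without them leaves the counts of every other gene as they were, so it cannot show that part.

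Many hosts could not be seen in these counts. Of 566 hosts with a row there, 194 had no count in any library. All 127 hosts that lie wholly inside another gene on the same strand were among them, at a median length of 109 bases, while 65 of 408 hosts free of such overlap (15.9%) had no count. The header of the count table shows that pairs overlapping 2 genes were not assigned, and a host inside a gene on its strand then receives none. The hosts inside a gene included Mir26b, Mir7031 and Mir7657, with 35 of 52 Mir and 10 of 11 Snor hosts in all, and none of these has a washout value. The filter on low counts left 169 hosts.

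In the washout 11 of the 169 hosts rose and 20 fell in IAA against EtOH libraries (edgeR quasi-likelihood test, Benjamini-Hochberg FDR under 0.05, 4 libraries each). That is 6.51% and 11.8%, where 8.83% of 15110 genes rose and 7.60% fell. The median log2 fold change was −0.23 over the hosts and −0.05 over all genes tested. DESeq2 gave 21 higher and 24 lower. Leaving out 1 library gave 9 to 13 higher and 8 to 21 lower hosts. The lower count went to 13 without EtOH library 1, to 8 without EtOH library 2, to 9 without IAA library 1 and to 10 without IAA library 2 of line 10E. In 41 of the 169 hosts the groups did not overlap, where 23.1% of all genes tested had groups apart, a share near that of the hosts. The EtOH libraries with the same number in the 2 lines deviated together from the means of their line and treatment (r = 0.712 across genes), while the IAA libraries did not (r = −0.193), and the part of this in the calls was not tested. Of the 31 called hosts 14 were called in every alternative fit. The calls of Gm49727, Gm11464, Gm49864, 2210417A02Rik, Gm867, Gm9895, Gm20628, Gm39458 and Gm48730 were each lost without 1 or more single libraries. For Gm867 these were EtOH library 2 and both IAA libraries of line 10E and EtOH library 2 of line 11D, for Gm9895 EtOH library 2 and IAA library 1 of line 10E, and for Gm48730 IAA library 1 of line 10E.

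The most increased hosts were both short and typed microRNA. Mir6236 (chr9:110281287-110281409) stood at 127, 143, 128 and 112 CPM in the EtOH libraries and at 1368, 1643, 943 and 1564 CPM in the IAA libraries, in the order 10E 1, 10E 2, 11D 1 and 11D 2. All 4 IAA libraries lay above all 4 EtOH libraries, and Mir6236 rose 10.8-fold (log2 3.44 ± 0.22 SE, FDR = 4.46e-06 by edgeR). Gm24187 (chr13:9834469-9834525) stood at 211, 221, 162 and 123 CPM in EtOH and at 2343, 2541, 1114 and 1501 CPM in IAA libraries, a rise of 10.5-fold (log2 3.39 ± 0.30, edgeR FDR = 4.2e-05). Line 10E held the higher values of Gm24187 in both treatments. Both moved with the share of counts in the 6 loci named above. Whether the hosts rose apart from whatever raised those loci was not tested. Without those loci the log2 fold changes were 3.46 and 3.41. That fit leaves the counts of both hosts as they were, so it cannot decide this. Their PROMPTs had no call at 12 h: Mir6236 at 0.18 and Gm24187 at 0.11 (adjusted p = 0.826) by the authors' deposited table.

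**Figure D4:**
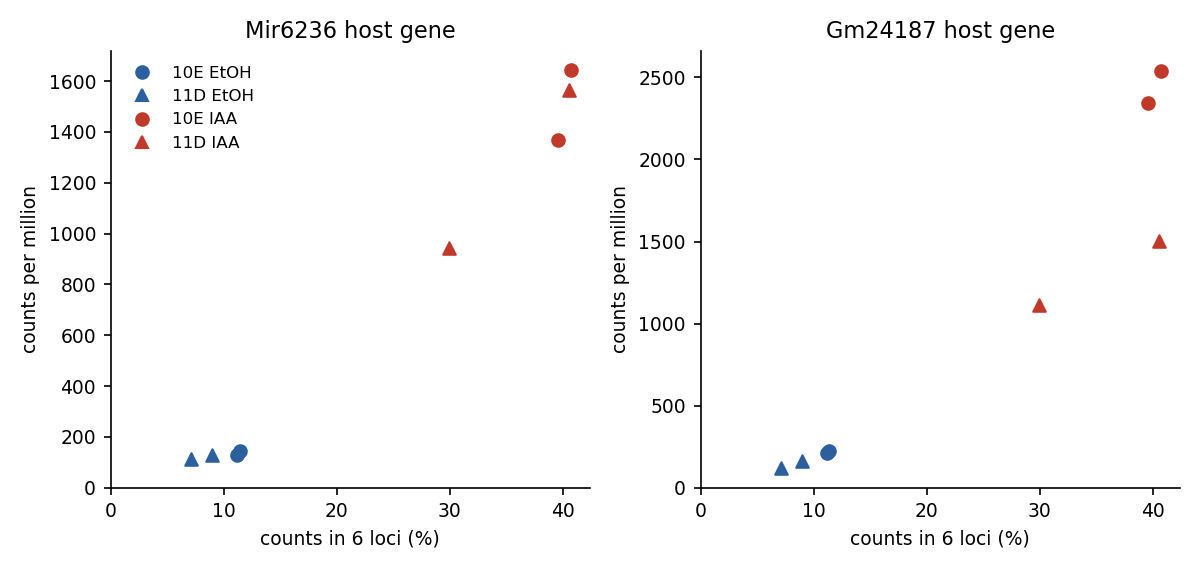
CPM of the host genes Mir6236 (left) and Gm24187 (right) in each washout library (vertical axis) against the percentage of that library's counts in the 6 loci with over 1% of counts (horizontal axis). The 4 EtOH libraries lie at 7.12 to 11.4% and under 222 CPM, and the 4 IAA libraries at 29.9 to 40.7% and above 943 CPM.

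Other hosts that rose were less abundant. Gm48163, an antisense RNA, rose from 0.37 ± 0.07 to 2.63 ± 1.41 CPM (mean ± SD, n = 4 libraries each, edgeR FDR = 0.00249), with IAA libraries at 1.37 and 1.58 in line 10E and 3.23 and 4.34 in 11D. Gm45552, also antisense, rose 3.93-fold (edgeR FDR = 0.00675), from 0.33 to 0.46 CPM in EtOH to 1.45 to 1.77 in IAA libraries. Gm10800 and Gm10801 lie on chromosome 2 and are annotated as protein-coding. Gm10800 stood at 17.1, 8.42, 14.6 and 7.69 CPM in EtOH and at 37.5, 27.5, 45.2 and 30.3 CPM in IAA libraries, a 2.95-fold rise (edgeR FDR = 0.00332). Gm10801 rose 2.91-fold (edgeR FDR = 0.0103). In both genes the libraries numbered 1 were higher than those numbered 2 within each line and treatment. The rises of Gm20628 (3.68-fold), Gm48730 (2.71-fold), Gm39458 (1.99-fold), A930007A09Rik (1.83-fold) and Gm31108 (1.83-fold) rest on means of at most 24.0 CPM.

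Among the hosts that fell, F630040K05Rik, a long intergenic noncoding RNA on chromosome 17, stood at 9.67, 22.6, 6.15 and 22.2 CPM in EtOH and at 3.34, 2.64, 1.21 and 1.22 CPM in IAA libraries. The groups did not overlap, the EtOH libraries numbered 2 were the highest, and it was 7.55-fold lower in IAA (edgeR FDR = 0.00287). Gm44107 had 22, 47, 24 and 30 counts in EtOH and 1, 0, 4 and 3 in IAA libraries, 6.45-fold lower by the fit (edgeR FDR = 0.00916). Its count of 0 in the second IAA library of line 10E allows up to 0.395 CPM at 3 counts. Gm14164, a processed transcript, stood at 18.7, 28.1, 22.1 and 25.6 CPM in EtOH and at 6.08, 7.25, 9.28 and 8.90 CPM in IAA libraries, 2.98-fold lower (edgeR FDR = 0.000722). Its groups did not overlap.

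The most abundant host that fell was 4930461G14Rik, a long intergenic noncoding RNA on chromosome 9, from 199 ± 34 to 109 ± 16 CPM (SD, n = 4 each, edgeR FDR = 0.00731). Its EtOH libraries lay at 199, 247, 169 and 183 CPM and its IAA libraries at 115, 90.9, 102 and 128 CPM, without overlap. Gm31793 (3.09-fold lower), Gm9895 (3.19-fold), Gm49727 (3.75-fold), Gm11464 (3.20-fold), Gm49864 (3.12-fold) and 2210417A02Rik (2.25-fold) also fell, at EtOH means of 1.85 to 17.1 CPM. Gm9895 had log2 fold changes of −3.15 in line 10E and −0.78 in 11D, a difference that did not pass (edgeR interaction FDR = 0.248). Of the 5 most abundant hosts, D230025D16Rik (219 ± 18 CPM in EtOH, 210 ± 72 in IAA, edgeR FDR = 0.888) and Gm53 (173 ± 19 and 167 ± 33, edgeR FDR = 0.861) did not pass. No host differed between the lines in its response at an interaction FDR under 0.05 by edgeR, and 21 of 169 did at an unadjusted p under 0.05, beside 14.2% of all genes.

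**Figure D5:**
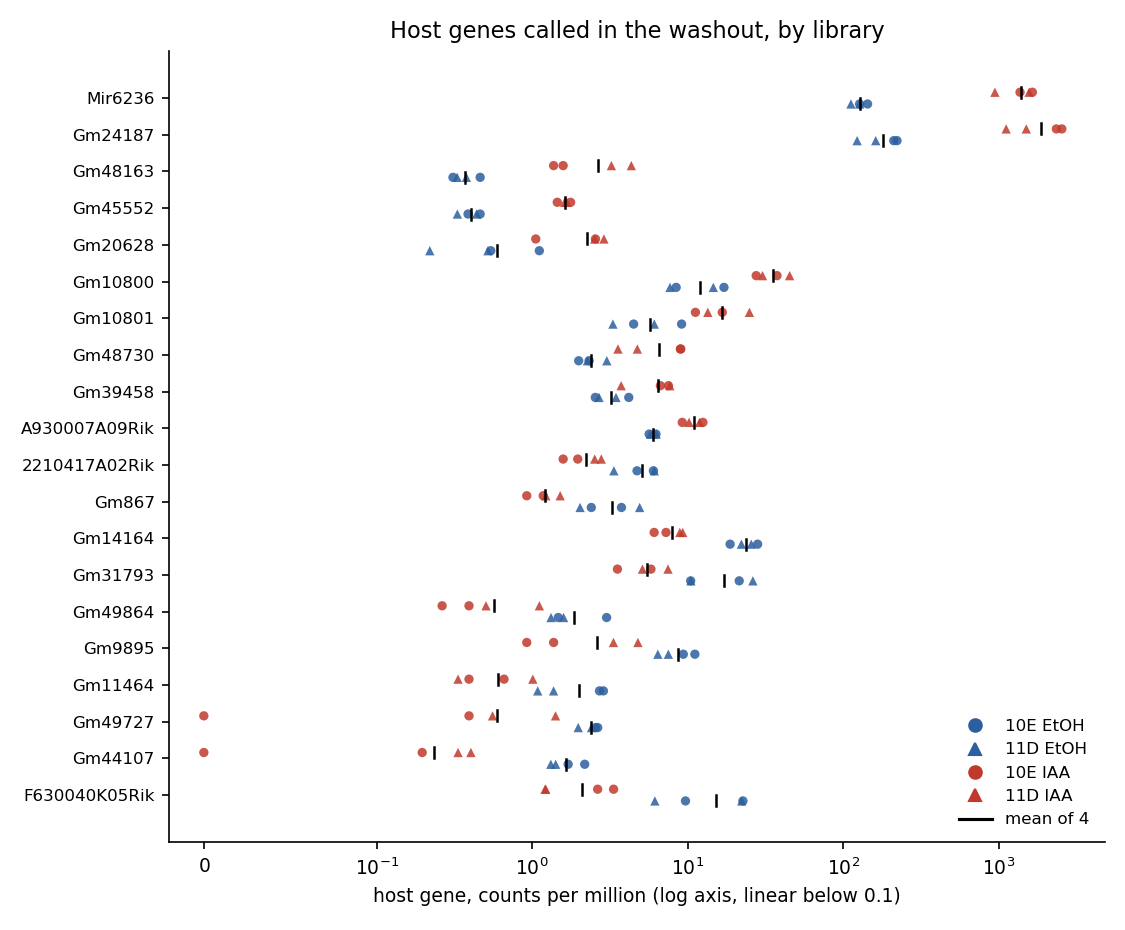
CPM (horizontal axis, log scale, linear below 0.1) of the 10 hosts with the largest fall and the 10 with the largest rise in the washout, 1 point per library, blue for EtOH and red for IAA, circles for line 10E and triangles for 11D, with the mean of 4 as a bar. Mir6236 and Gm24187 stand apart at the right, with all IAA libraries above 943 CPM, and the groups of Gm20628 and Gm39458 overlap.

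A few hosts had calls in both experiments. Of the 38 hosts with a called PROMPT at 12 h, 7 were tested in the washout and 2 of them fell, Gm867 and Gm20703, where 7.60% of all genes fell. The count of 7 is too small to set against that share. Gm867, annotated as protein-coding, had EtOH libraries at 2.40, 3.75, 2.03 and 4.91 CPM and IAA libraries at 1.18, 0.92, 1.51 and 1.22 CPM, 2.68-fold lower (edgeR FDR = 0.0269). Its PROMPT was at −1.94 ± 0.54 in the authors' deposited 12 h table. Gm20703 stood at 9.67, 9.16, 7.08 and 6.79 CPM in EtOH and at 4.51, 4.74, 2.42 and 3.00 CPM in IAA libraries, 2.25-fold lower (edgeR FDR = 0.0164). Line 11D was the lower one in each treatment. Mir290a did not pass (9.72 and 6.08 CPM on average, log2 −0.67 ± 0.26, edgeR FDR = 0.101), nor did Gm43091, Gm15751, Gm16537 and Gm44053. Gm14401, called as a gene at 12 h (−1.06 ± 0.21, adjusted p = 5.47e-06 by the authors' deposited table), fell 1.67-fold in the washout (edgeR FDR = 0.0364). It was not called in every alternative fit. Among the other hosts called as genes, 2410137M14Rik (log2 −0.47, edgeR FDR = 0.160) and 1700109H08Rik (−0.29, edgeR FDR = 0.431) did not pass. Neither did 1700016D06Rik (−0.90, edgeR FDR = 0.141) and 6430550D23Rik (−0.35, edgeR FDR = 0.551), whose genes were positive at 12 h.

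The genes that end and degrade such transcripts were examined as a list of exosome, nuclear exosome targeting, cap-binding, Integrator, cleavage and polyadenylation genes. At 12 h 1 of 50 was positive and 11 negative, beside 8.58% and 12.1% of all genes, with a median of −0.22 beside 0.01 in the authors' deposited gene table. Pcf11, a cleavage factor that releases the polymerase, was at −1.54 ± 0.22 (adjusted p = 1.43e-10), and Zc3h4, a restrictor of noncoding transcription, at −0.99 ± 0.20 (adjusted p = 1.06e-05), by the authors' deposited table. The Integrator genes Ints6 (−0.96 ± 0.27) and Ints3 (−0.75 ± 0.22) and the exosome core genes Exosc5 (−0.72 ± 0.22) and Exosc7 (−0.49 ± 0.21) were negative too, by the authors' deposited table. The cleavage factor gene Clp1 was the positive one, at 1.05 ± 0.43 by the authors' deposited table. At 6 h 1 of 50 was positive and 1 negative, beside 1.71% and 1.39% of all genes. These were Ints1 (1.18 ± 0.41, adjusted p = 0.0175) and Pcf11 (−0.54 ± 0.21, adjusted p = 0.0364) by the authors' deposited table. In the washout 9 of 49 rose and 1 fell (edgeR FDR under 0.05), beside 8.83% and 7.60% of all genes, with a median log2 fold change of 0.16 beside −0.05. Ints1 rose from 26.7 to 80.9 CPM (edgeR FDR = 0.00213), Ints2 from 23.0 to 47.2 CPM (edgeR FDR = 0.00204) and Ncbp1, a cap-binding subunit, from 55.4 to 95.5 CPM (edgeR FDR = 0.0116), while Pcf11 fell from 85.8 to 50.1 CPM (edgeR FDR = 0.0183).

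Of 23 genes that mature microRNAs and small nucleolar RNAs, 0 were positive and 7 negative at 12 h, beside 8.58% and 12.1% of all genes, with a median of −0.08 in the authors' deposited gene table. They included Nop58, a core protein of box C/D small nucleolar RNAs (−1.38 ± 0.23, adjusted p = 3.55e-08), and Dgcr8 (−1.20 ± 0.35) and Drosha (−0.75 ± 0.23), which act together on primary microRNAs, by the authors' deposited table. At 6 h Nop58 was negative as well (−0.78 ± 0.18, adjusted p = 0.000815) by the authors' deposited table. In the washout 2 of 23 rose and 0 fell (edgeR FDR under 0.05), where 8.83% of all genes rose and 7.60% fell. The number that rose is near the share over all genes, so nothing is read from it. The genes that rose were Xpo5, which exports microRNA precursors, from 78.1 to 131 CPM (edgeR FDR = 0.00964), and Dicer1 from 81.7 to 122 CPM (edgeR FDR = 0.0223).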

How the data were processed

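PROMPTs and genes of the time course were taken from the authors' deposited comparison tables, which hold, per the file headers, a mean normalised count (a signal averaged over libraries), a log2 fold change with its SE, and p-values before and after adjustment. Their column names are those of DESeq2, and the fold changes are shrunken towards 0. The groups compared, the upstream window and its strand are not given in the sources used here. The washout counts were deposited by the authors as whole-number counts of read pairs per gene, made with featureCounts 2.0.1 over gene features on the reverse strand of mm10, with both ends mapped and no multi-overlapping or multi-mapping pairs, per the file headers. STAR, deepTools and mm10 are named without versions per the submitters' processing notes.

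From these files the members were picked by name and mean count, and followed by host name. Host counts were tested with edgeR 4.0.16 (R 4.3.3): TMM scaling, filterByExpr, quasi-likelihood fit, IAA against EtOH, FDR adjusted by Benjamini-Hochberg over all genes tested. The script was tested on simulated data. Shown CPM use TMM-scaled totals. Totals ran from 6547992 to 16554314 counts, and floors of 3 counts cover counting error only. Alternatives were DESeq2 1.42.0, other scalings, no low-count filter, line and replicate blocks, other thresholds and each library left out.

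The members and the gene lists were chosen with earlier results of these data known. Named were up to 12 called members at each end of the 12 h range, the 10 most abundant members, those beside the count minimum, the 3 most abundant Mir and Snor members, and in the washout up to 10 called hosts in each direction and the 5 most abundant, with head-to-head genes and called list members. Others, such as Gm867 and Gm20703 beside their PROMPTs, Gm31108, Mir26b, Mir7031, 5930420M18Rik, Gm11788, Gm5922, Gm25397, 9530068E07Rik, Snora24, Snora3, Snord104, the called hosts in the gene tables and the genes that hold a host, were named after their values were seen, and the 1000-base upstream overlap was added after seeing the data. Replicate numbers did not pair IAA with EtOH libraries: deviations from the line and treatment means of same-numbered libraries correlated at −0.172 to 0.0963 between treatments, though at 0.712 between the EtOH libraries of the 2 lines. Whether libraries of 1 line are separate cultures is not stated, and the spread behind the p-values may then be technical. Other label fields contradict the titles of many time-course libraries, and titles were used.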

Additional observations from a re-analysis of the deposited data

Results flagged for a closer look

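In the EtOH libraries of the washout the host Gm49864 stood at 3.008 CPM in library 2 of line 10E and at 1.321, 1.47 and 1.591 CPM in the others, so that 1 library lay far from the rest. Of 46 groups of 4 libraries examined this was the 1 that did so, where chance gives about 1 in 20.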

How the results depend on the processing

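At 12 h the 15 positive PROMPTs became 9 with a mean count minimum of 5, 3 with 10, 30 at an adjusted p under 0.1, 2 under 0.01 and 5 with Benjamini-Hochberg adjustment over every row. The 23 negative ones became 51, 10 and 11 under the last 3 of these. At 6 h 1 negative member passed at an adjusted p under 0.1. In the washout the 11 higher hosts became 18 without a filter on low counts, 21 with DESeq2 and 5 at an FDR of 0.01, and 9 to 13 with 1 library left out. The 20 lower hosts became 6 at an FDR of 0.01 and 8 to 21 with 1 library left out. With line alone as a block 13 were higher and 15 lower. With the replicate block and line together 10 were higher and 13 lower, and 18 of the 31 calls were shared. Among named hosts Gm49727, Gm11464, Gm49864 and Gm39458 lost their call under both blocks, and Gm867, 2210417A02Rik, A930007A09Rik and Gm20628 under the second. With 3000 bases in place of 1000, 120 members had an opposite start. The log2 fold changes of 2 hosts without a call changed sign. D230025D16Rik (−0.06) ran from −0.2554 to 0.1107 and Gm53 (−0.05) from −0.1457 to 0.06861 when 1 library was left out, with 0.05007 and 0.01046 among these. The cause of these changes was not tested, except that stricter minimums leave fewer members. PROMPT tables hold no value per library, so no library could be left out there, and a mean count of 3 limits what can be seen.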
